A study of Triticum turgidum subsp. durum with 96 samples.

Results

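Of the 159 small RNA hairpins described in durum wheat (Triticum turgidum subsp. durum) that had no perfect match to a known miRNA, 47 were located on sequences of the A genome, and these 47 are described here. They were chosen by location alone, as the hairpins whose chromosome arm carries the letter A (1AL, 5AS and so on), so no expression value entered the choice. The other 112 lie on sequences assigned to the B genome (59 hairpins) and the D genome (53 hairpins) of bread wheat.

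A miRNA gene is transcribed as a longer RNA that folds back into a hairpin, and in plants the enzyme Dicer-like 1 cuts a short duplex from it. One strand, the mature miRNA, is loaded into an Argonaute protein and guides it to messenger RNAs with a nearly complementary site, which are then cut or translated less. Plant miRNAs take part in leaf and flower development and in responses to drought. Durum wheat is a tetraploid that carries the A and B genomes and no D genome. The hairpins were placed on survey sequence of the hexaploid bread wheat, so a location on a D sequence names the closest sequence in that assembly and not a chromosome of durum wheat.

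The libraries came from the developing head and the flag leaf of 48 plants, with 6 plants in each of 8 groups. Tamaroi and Yawa are labelled tolerant of water deficit stress, and EGA Bellaroi and Tjilkuri are labelled sensitive. Plants of each genotype were grown under water deficit or as watered controls in 2 seasons, with 3 plants per group and season, and both organs of every plant were sequenced, which gives 96 libraries in 16 groups. Plants are named by the plant number of the labels and replicates by season and letter, such as 1-a. A head holds several organs and a leaf several tissues, so a change in the mix of cells and a change within cells cannot be told apart.

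Mature sequences were at hand for 4 of the 47, which are shown 5′ to 3′ with the seed, bases 2 to 8, in capitals. These 4 recur in every comparison below.
Ttu-miR007: uGUAAUAAacuagucuucaga
Ttu-miR008: uAAGGAAAagaaggagaaacg
Ttu-miR038: uUUGUGAUuugugaaugccacgug
Ttu-miR109: gAGAGCUAcucaaauguucaa

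The hairpins of Ttu-miR007 and Ttu-miR008 lie on different contigs of arm 1AS, at positions 1 to 262 and 9437 to 9538 of their contigs. That of Ttu-miR038 lies on 2AL, at 1223 to 1352, and that of Ttu-miR109 on 5AS, at 545 to 704. Positions count from 1 on the contigs of the bread wheat chromosome survey sequence, and no gene annotation of these contigs was used here. The 4 seeds all differ from each other, and none equals the seed of any of the 110 conserved miRNAs measured in the same libraries. The closest conserved sequence had 8 mismatches to Ttu-miR007, 8 to Ttu-miR008, 9 to Ttu-miR038 and 9 to Ttu-miR109. Their GC content was 28.6%, 38.1%, 41.7% and 38.1% in that order. Ttu-miR007, Ttu-miR008 and Ttu-miR038 begin with U, the base most plant miRNAs begin with, and Ttu-miR109 with G. The listed sequence of Ttu-miR038 has 24 bases, although its identifier gives 22, and which is the cut product was not tested.

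Several target sites were predicted for each. Of those aligned without a gap, the site with the most Watson–Crick pairs is shown here in the direction of the messenger RNA, with the bases that form no such pair in capitals, and the others were not used.
Site of Ttu-miR007: ucugaagacuaguuuauuaca
Site of Ttu-miR008: cguuCcuUcuucuuuuccuuU
Site of Ttu-miR038: gugUUauucacaaaucacaaa
Site of Ttu-miR109: uugGacauCugaguagcucuc

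Of the 21 bases of each site, all 21 were paired for Ttu-miR007, 18 for Ttu-miR008 (with 1 more as a G–U pair), 19 for Ttu-miR038 (1 more) and 19 for Ttu-miR109 (1 more). The seed was fully paired, at 7 of its 7 bases, in each of these 4 sites. The message with the site of Ttu-miR007 carried no annotation. The others were annotated as a dirigent protein for Ttu-miR008, a mitochondrial substrate carrier for Ttu-miR038 and like FK506-binding protein 2 for Ttu-miR109. Dirigent proteins steer the coupling of lignan precursors, mitochondrial carriers move metabolites across the inner membrane, and FK506-binding proteins help other proteins to fold. The sequencing of these small RNA libraries measured no message level. The study measured selected targets of Ttu-miR008 by quantitative PCR in RNA of the same samples, and those values are not used here.

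Values are given as log2 CPM, the log2 of counts per mega (M) reads of the library, and the lowest value of each library stands for a count of 0 and is called its floor. Depth ran from 0.551 to 29.7 M reads with a median of 4.91 M, and of these reads 941 to 91855 fell on the 159 hairpins and 574 to 47088 on the 47. The floor lay between -5.89 and -0.14 log2 CPM, and 2 to 24 of the 47 hairpins were at the floor of a library. The share of reads on the 159 hairpins had a median of 0.172% in heads and 0.286% in flag leaves. The organ labels were checked with the conserved Bdi-miR319b, a family that regulates cell division in developing organs, which had 119 to 1197 RPM in the 48 heads and 1.35 to 15.7 RPM in the 48 flag leaves. Zma-miR171d had 38.2 to 232 RPM in heads and 2.63 to 11.2 RPM in flag leaves, so neither overlapped between the organs. The study lists both as more abundant in heads of these same libraries, so the check is not independent.

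A few plants stood apart in both organs, and results that rest on them are given with and without them below. Ttu pre-miR071, on 3AS at 588 to 713, had 5.65, 6.00, 5.62 and 6.57 log2 CPM in the heads of plants 3, 10, 12 and 14, against at most 2.91 in the other 44 heads. In the flag leaves of the same 4 plants it had 707, 1026, 1053 and 864 reads, against 0 to 5 reads in the other 44 flag leaves. Plant 3 is a Tamaroi control, plants 10 and 12 are Tamaroi plants under water deficit and plant 14 is an EGA Bellaroi control, so the 4 share neither genotype nor treatment. Ttu pre-miR030, on 2AL, had 64, 25, 0 and 14 reads in the flag leaves of plants 3, 10, 12 and 14, and none in any other flag leaf. Ttu pre-miR005, on 1AL at 5735 to 5878, had 0 reads in the heads of all 4 plants and 15, 5, 5 and 2 reads in their flag leaves. The plot of both organs of each plant shows these 4 in a corner of their own for Ttu pre-miR071. Whether these plants are of the labelled genotype was not tested.

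**Figure D1:**
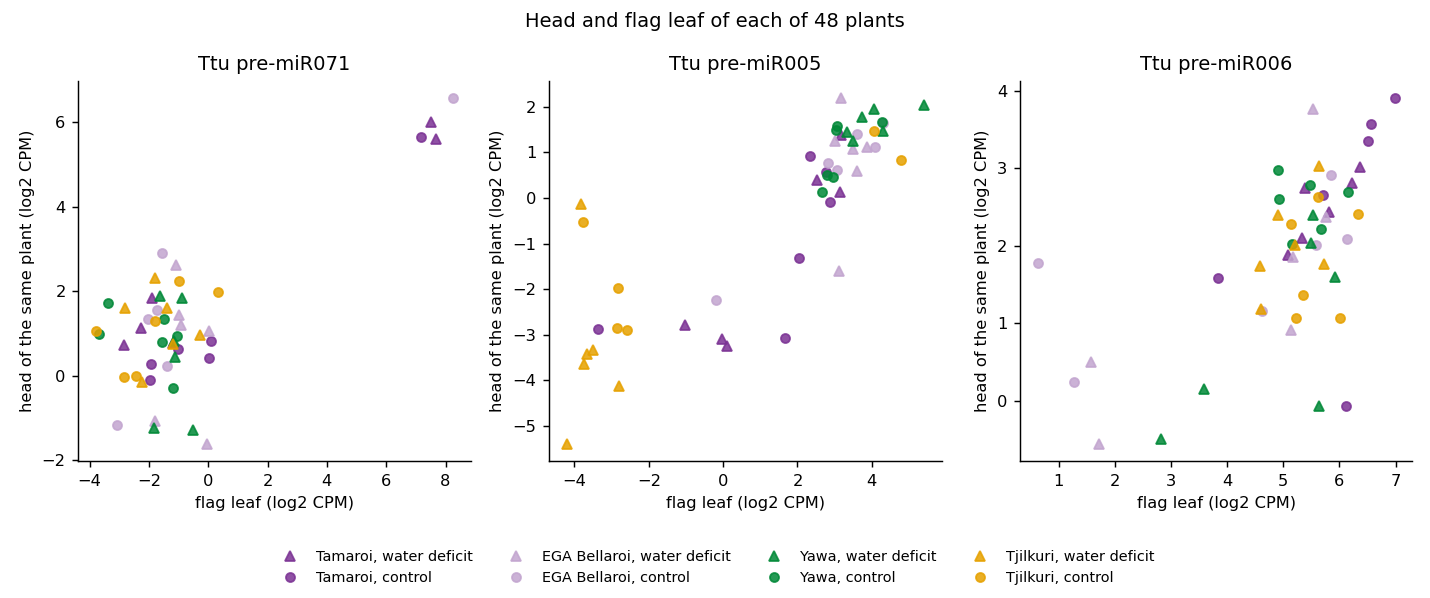
Level in the head (vertical axis) against the flag leaf (horizontal axis) of each of 48 plants, in log2 CPM, for Ttu pre-miR071, Ttu pre-miR005 and Ttu pre-miR006; colour gives the genotype and shape the treatment. For Ttu pre-miR071 plants 3, 10, 12 and 14 lie at 5.62 to 6.57 in the head and above 7 in the flag leaf, and for Ttu pre-miR005 a pair of Tjilkuri controls lies among the plants of the other genotypes.

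The 47 hairpins were spread over all 7 A chromosomes, with 12 on 2A, 8 each on 1A and 3A, 7 on 7A and 4 each on 4A, 5A and 6A. Their lengths ran from 100 to 528 nt with a median of 144 nt, against medians of 141 nt on B and 148 nt on D sequences. The mature sequence was 21 nt long by its identifier in 34 of the 47, 22 nt in 5, 23 nt in 5, 20 nt in 2 and 19 nt in 1. On B sequences 43 of 59 were 21 nt and 10 were 22 nt, and on D sequences 39 of 53 and 1. The median of the mean levels over 96 libraries was 0.55 log2 CPM for A genome hairpins, -0.20 for B and -0.19 for D. The 47 held 809536 reads, 52.5% of all hairpin reads, against 25.5% for the 59 on B and 22.0% for the 53 on D sequences. This share rested on few members. Ttu pre-miR007 alone held 38.0% of the A genome reads, and Ttu pre-miR033 and Ttu pre-miR036 16.1% each. These last had nearly the same values as each other, as Ttu pre-miR045 on B and as Ttu pre-miR059 on D sequences. Their reads appear to be counted more than once, so the sums and shares do not divide the reads between genomes.

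By mean level over the 96 libraries Ttu pre-miR007 came first (8.98 log2 CPM), followed by Ttu pre-miR033 and Ttu pre-miR036 on 2AL (7.28 each), Ttu pre-miR067 on 3AL (6.54), Ttu pre-miR038 (6.07) and Ttu pre-miR066 on 3AL (4.56). Ttu pre-miR067 is the longest of the 47, at 528 nt, and the one with a 19 nt mature sequence. The SD over the 96 libraries was 0.73 for Ttu pre-miR007, 0.96 for Ttu pre-miR033 and Ttu pre-miR036, 0.61 for Ttu pre-miR067, 0.72 for Ttu pre-miR038 and 0.98 for Ttu pre-miR066. The gap below Ttu pre-miR007 and that above Ttu pre-miR066 were larger than these SDs. Between neighbours from Ttu pre-miR033 to Ttu pre-miR038 the gaps were smaller than the larger SD of each pair. The same held for Ttu pre-miR066, Ttu pre-miR031 (4.54) and Ttu pre-miR089 (4.54). These SDs span both organs and ignore that all hairpins were measured in the same libraries, so they do not test if mean levels differ. The lowest were Ttu pre-miR030 (-3.03), with 105 reads in 5 libraries, and Ttu pre-miR040 and Ttu pre-miR065 (-2.94 each), with 49 reads in 10 libraries. Between these ends, 13 of the 47 had reads in all 96 libraries and 8 in fewer than 48. The median count per library was 100 reads or more for 8 members and 5 or fewer for 22, so for those 22 a difference rests on few reads.

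**Figure D2:**
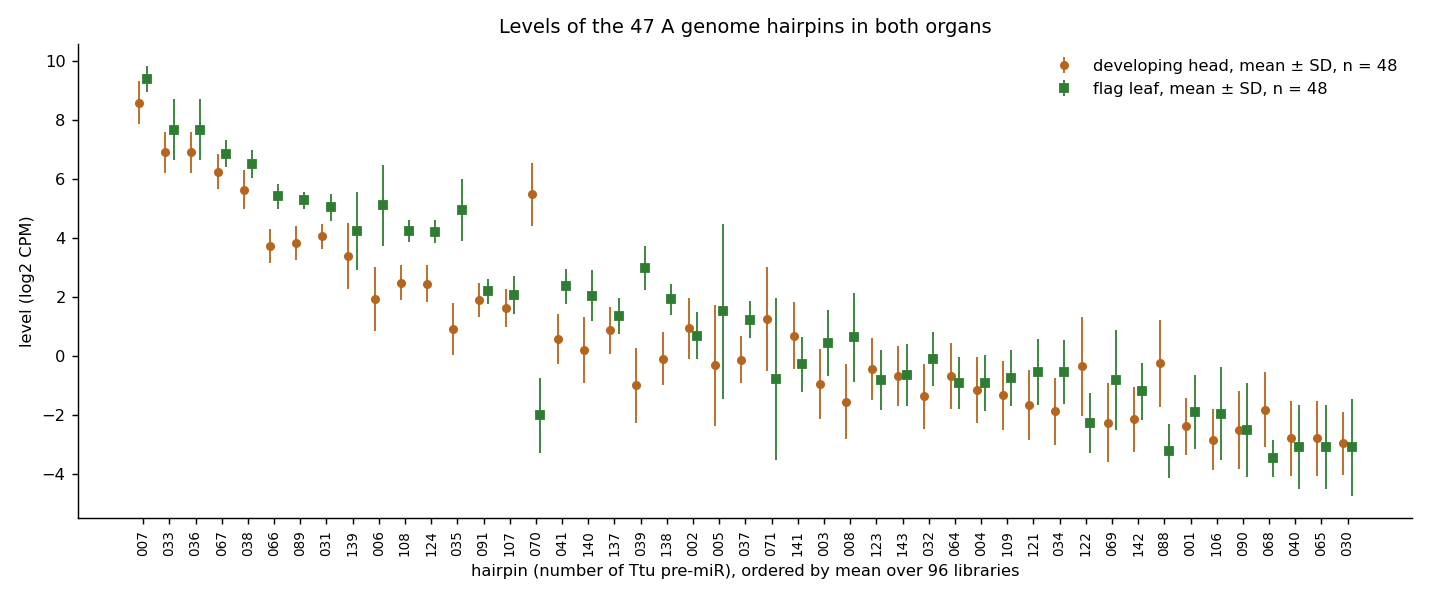
Mean level in log2 CPM (vertical axis, bars are the SD) of the 47 A genome hairpins in the developing head (n = 48) and the flag leaf (n = 48), ordered by the mean over both. Ttu pre-miR007 leads at 8.98 log2 CPM over all libraries, most members lie higher in the flag leaf on this deposited scale, and Ttu pre-miR070 shows the widest gap, 5.46 in heads and -2.01 in flag leaves.

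Not every member is a signal of its own. Ttu pre-miR033 and Ttu pre-miR036 had equal values within 0.01 log2 in at least 90 of the 96 libraries, and the same values were given to Ttu pre-miR045 on 2BL and Ttu pre-miR059 on 2DL. Ttu pre-miR002 on 1AL shared its values with Ttu pre-miR028 on 1DS and Ttu pre-miR127 on 6BL. Ttu pre-miR040 and Ttu pre-miR065 were in a group of 8 hairpins that met the same limit mostly through shared floors, since any of the 8 had reads in only 10 libraries and all 8 in 8 libraries. So 5 of the 47 could hardly be told apart from hairpins on B and D sequences. With a tolerance of 0.1, Ttu pre-miR070 on 3AS also went with Ttu pre-miR078 on 3B, and Ttu pre-miR091 on 4AS with Ttu pre-miR102 on 4DL. Ttu pre-miR108 and Ttu pre-miR109 overlap on 1 contig of 5AS and had different values, 3.35 and -1.04 log2 CPM on average.

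Heads and flag leaves differed in most members. Of the 47, 6 were higher and 32 lower in the head than in the flag leaf (limma, adjusted p at most 0.05), and 9 were not called. Over all 159 hairpins 11.9% were higher and 70.4% lower, so the A genome list lay near the background in both directions. The median difference, head minus flag leaf, was -0.80 log2 for A genome hairpins, -0.89 for B, -1.0 for D and -0.92 for all 159. Among B hairpins 12 were higher and 39 lower, and among D hairpins 1 was higher and 41 lower. Without the 4 plants that stood apart, 9 of the 47 were higher and 31 lower. The added ones were Ttu pre-miR030, Ttu pre-miR040 and Ttu pre-miR065 (0.50, 0.51 and 0.51 log2, adjusted p = 0.014 each), which are at the floor in most libraries, and floors were higher in heads (median -3.04) than in flag leaves (median -3.47).

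The most distinct of the 47 was Ttu pre-miR070, whose hairpin lies on 3AS at 2233 to 2408 and gives a 22 nt mature sequence. Its level was 2.52 to 7.45 log2 CPM in heads (median 5.67) and -4.31 to 1.99 in flag leaves (median -1.92), so the organs did not overlap. Ttu pre-miR078 on 3B was within 0.1 log2 of it in 90 libraries, so this signal cannot be assigned to the A sequence alone. Ttu pre-miR070 was higher in the head in 48 of 48 plants, by 7.48 log2 (SE 0.22, adjusted p = 1.34e-49). In reads this was 14730 in the 48 heads and 86 in the 48 flag leaves, 56.4 against 0.294 CPM when pooled, a 192-fold difference. All 8 head groups had mean levels between 4.87 (Tamaroi control, SD 1.63, n = 6) and 6.18 log2 CPM (Yawa control, SD 0.85, n = 6). In flag leaves 31 of 48 libraries held any read, with 24 reads at most, in an EGA Bellaroi control.

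The other 5 members that were higher in the head were lowly expressed. Ttu pre-miR088, on 4AL at 425 to 538, had 289 reads in heads and 8 in flag leaves, was higher in 48 of 48 plants and differed by 2.96 log2 (SE 0.26, adjusted p = 4.48e-18). Ttu pre-miR122, on 6AS at 3043 to 3194, had 267 and 50 reads and differed by 1.92 log2 (SE 0.28, adjusted p = 1.69e-09), with the head higher in 40 of 48 plants. Ttu pre-miR141, on 7AL at 1845 to 1977, had 451 and 269 reads and differed by 0.97 log2 (SE 0.21, adjusted p = 2.95e-05), with the head higher in 37 of 48 plants. These 3 overlapped between organs and were higher in heads on average. Ttu pre-miR088 had no read in either organ of 9 plants, and Ttu pre-miR122 in 7. In those plants the comparison is between floors only.

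Ttu pre-miR068, on 3AL at 5489 to 5588, had 76 reads in 23 heads and 0 in 48 flag leaves. With 3 reads set over the whole flag leaf group this is an at least 28.4-fold higher pooled level. Its difference of 1.64 log2 (SE 0.21, adjusted p = 3.1e-11) was computed on values that are floors in most libraries. With 1 common floor for all libraries, -0.14 log2 CPM, it was 0.06 (adjusted p = 0.0788). Flag leaves had at most -1.805 log2 CPM and heads a median of -2.15, so most values were raised to that floor. A difference near 0 thus followed from the setting and says little on the reads.

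Ttu pre-miR071 was higher in the head in 42 of 48 plants, by 2.04 log2 (SE 0.45, adjusted p = 3.08e-05), yet its pooled reads ran the other way, 1486 in heads and 3734 in flag leaves. The reads of the 4 plants that stood apart, given above, are part of these sums, and without those plants the difference was 2.41 log2 (adjusted p = 8.9e-17). Those plants were picked by their values of this hairpin, so the larger difference is no independent support.

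Of the 32 members that were lower in the head, Ttu pre-miR035 and Ttu pre-miR039, both on 2AL, stood out. Ttu pre-miR035, at 4651 to 4769 with a 22 nt mature sequence, had -2.24 to 2.49 log2 CPM in heads (median 0.93) and 2.19 to 6.99 in flag leaves (median 5.09), and the difference was -4.01 log2 (SE 0.18, adjusted p = 6.16e-36). Ttu pre-miR039, at 622 to 868, averaged -1.0 ± 1.28 in heads and 2.97 ± 0.75 in flag leaves (SD, n = 48 each), a difference of -3.98 log2 (SE 0.21, adjusted p = 5.09e-31). Both were lower in the head in 48 of 48 plants. In pooled reads Ttu pre-miR035 had 572 in heads and 10798 in flag leaves, and Ttu pre-miR039 had 120 and 2635.

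Ttu pre-miR006, on 1AL at 3086 to 3190, had 1252 reads in heads and 13016 in flag leaves, differed by -3.16 log2 (SE 0.23, adjusted p = 1.05e-22) and was lower in the head in 47 of 48 plants. Its values nevertheless overlapped, since single flag leaves were as low as 0.62 log2 CPM. Ttu pre-miR138, on 7AL at 277 to 397, differed by -2.0 (SE 0.14, adjusted p = 2.68e-23).

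The 4 others with the smallest p were more evenly spread and had small SDs. Ttu pre-miR108 on 5AS averaged 2.48 ± 0.61 log2 CPM in heads and 4.22 ± 0.38 in flag leaves, and Ttu pre-miR124 on 6AS 2.45 ± 0.63 and 4.20 ± 0.39, although they lie on different arms. Their counts were within 11 reads of each other in every library (median 2, where Ttu pre-miR108 had a median of 57.5 reads), so they are not counted here as independent signals. Ttu pre-miR089 on 4AL averaged 3.81 ± 0.57 and 5.26 ± 0.28, and Ttu pre-miR066 on 3AL 3.73 ± 0.57 and 5.40 ± 0.43 (SD, n = 48 each). Each of these 4 was lower in the head in 48 of 48 plants, with differences from -1.75 to -1.45 log2.

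All 4 members with a known mature sequence were lower in the head on the deposited scale, and 3 of them turned with the shift of libraries described next. Ttu pre-miR038 averaged 5.63 ± 0.65 in heads and 6.51 ± 0.48 log2 CPM in flag leaves, and was lower in the head of 48 of 48 plants (-0.88 log2, SE 0.10, adjusted p = 2.11e-12). Ttu pre-miR008 averaged -1.56 ± 1.27 and 0.62 ± 1.52 (-2.18, SE 0.27, adjusted p = 7.1e-12, lower in 43 of 48 plants). Ttu pre-miR007 averaged 8.58 ± 0.74 and 9.38 ± 0.45 (-0.80, SE 0.12, adjusted p = 3.46e-09, lower in 43 of 48 plants). Ttu pre-miR109 averaged -1.34 ± 1.17 and -0.75 ± 0.95 (-0.59, SE 0.20, adjusted p = 0.0054, lower in 32 of 48 plants). It had a median of 2 reads per library, with any read in 32 heads and 46 flag leaves. Its limma call was lost with a common floor (-0.04, adjusted p = 0.416) and in season 1 alone (-0.47, adjusted p = 0.211). It was also lost without the 4 plants that stood apart and 2 Tjilkuri plants (-0.39, adjusted p = 0.0658).

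These directions depend on the scale. When the libraries were shifted to a common median over the 30 hairpins that had reads in every library, the median difference of all 159 moved to 0.27 log2 and that of the A genome hairpins to 0.39. Of the 47, 26 were then higher and 11 lower in the head, against 42.8% and 22.6% of all 159. The 6 that were higher stayed higher, and Ttu pre-miR070 reached 8.67 log2. Of the 32 that were lower, 11 stayed lower, among them Ttu pre-miR035 (-2.82), Ttu pre-miR039 (-2.78), Ttu pre-miR006 (-1.97) and Ttu pre-miR008 (-0.99), while 11 were called higher and 10 were not called. Ttu pre-miR007 (0.39), Ttu pre-miR038 (0.31) and Ttu pre-miR109 (0.60) turned from lower to higher. The shift added 1.19 log2 to the organ difference of every member, so which members changed sign followed from the size of the deposited difference and is no test of the others. The shift moves floors too, so a member at the floor in most libraries, such as Ttu pre-miR030, Ttu pre-miR040, Ttu pre-miR065 or Ttu pre-miR090, became higher by construction.

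**Figure D3:**
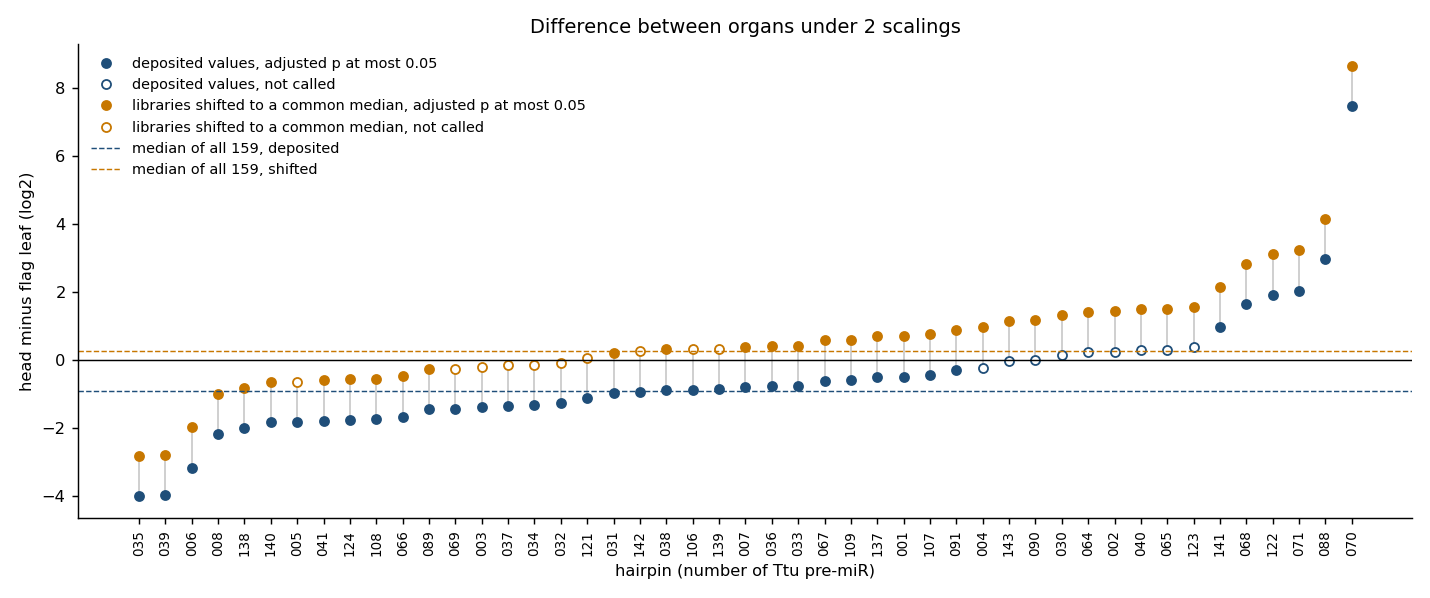
Difference between organs in log2, head minus flag leaf, of each of the 47 hairpins with the deposited values (blue) and with libraries shifted to a common median (orange); filled points have an adjusted p of at most 0.05 and dashed lines are the medians of all 159, -0.92 and 0.27. The shift raises every member by about the same amount, so that points near the blue dashed line cross 0 while Ttu pre-miR070 stays highest and Ttu pre-miR035 and Ttu pre-miR039 stay lowest.

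By chromosome, the 6 members higher in the head on the deposited scale were on 3A (3 of 8 members), 4A (1 of 4), 6A (1 of 4) and 7A (1 of 7). On 2A, 10 of 12 members were lower on the deposited scale, beside 70.4% of all 159, and 3 were lower and 6 higher after the shift. By mature length, all 5 members of 23 nt were lower on the deposited scale, and 2 were lower and 2 higher after the shift. Of the 34 members of 21 nt, 4 were higher and 22 lower on the deposited scale, and 19 were higher and 8 lower after the shift. These counts are descriptions of the list.

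Between genotypes 4 of the 47 were called in at least 1 of 4 comparisons (8.51%), against 6.92% of all 159 hairpins. On B sequences 2 of 59 were called and on D sequences 5 of 53. Within an organ, Tamaroi was compared with EGA Bellaroi and Yawa with Tjilkuri, 12 libraries a side.

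Ttu pre-miR005 differed most, with reads in every Yawa library and none in most of Tjilkuri. In the 12 flag leaves of Yawa it had 2.65 to 5.40 log2 CPM (median 3.42), which is 25 to 323 reads each. In the 12 flag leaves of Tjilkuri it had -4.20 to 4.79 (median -3.18), with 0 reads in 9 and 1 read in another, while plants 37 and 41 had 48 and 223 reads. The difference was 5.67 log2 (SE 0.73, adjusted p = 1.09e-07; 1.26% of all 159 were called in this comparison). In heads it averaged 1.31 ± 0.61 in Yawa and -2.17 ± 2.12 log2 CPM in Tjilkuri (SD, n = 12 each), a difference of 3.47 (SE 0.58, adjusted p = 4.41e-05; 3.14% of all 159 were called). In season 2 alone the head difference was 2.84 (adjusted p = 0.0546). Here too plants 37 and 41, both Tjilkuri controls, had 7 and 12 reads where the 10 other Tjilkuri heads had 0 or 1. Without these and the 4 plants that stood apart the differences were 6.91 in flag leaves and 4.01 in heads. Plants 37 and 41 were picked by their reads of this hairpin, so leaving them out had to widen the difference and adds no support. Tamaroi had the hairpin at 1.35 ± 2.03 and EGA Bellaroi at 3.16 ± 1.15 log2 CPM in flag leaves (SD, n = 12 each), where the low Tamaroi and EGA Bellaroi values included the 4 plants named above.

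Ttu pre-miR003, on 1AL at 2040 to 2265, was lower in Yawa flag leaves and did not overlap, with -3.21 to 0.65 log2 CPM in Yawa (median -0.04) and 0.85 to 2.28 in Tjilkuri (median 1.21). The difference was -1.66 (SE 0.38, adjusted p = 0.00681). It rests on 0 to 15 reads per Yawa library and 6 to 45 per Tjilkuri library. Leaving out replicate 1-a of every group gave -1.58 with an adjusted p of 0.0598. The call was also lost in season 1 alone (-1.92, adjusted p = 0.316) and in season 2 alone (-1.39, adjusted p = 0.199).

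In Tamaroi against EGA Bellaroi flag leaves 2 members were called, against 4.4% of all 159. Ttu pre-miR006 averaged 5.83 ± 0.84 log2 CPM in Tamaroi and 4.08 ± 2.11 in EGA Bellaroi (SD, n = 12 each; difference 1.74, SE 0.51, adjusted p = 0.0399). Plants 16, 18, 22 and 23 of EGA Bellaroi, all of season 2, had only 9 to 15 reads there, and the other 8 were in the range of Tamaroi. Ttu pre-miR035 averaged 5.61 ± 0.91 in Tamaroi and 4.32 ± 1.47 in EGA Bellaroi (difference 1.29, SE 0.40, adjusted p = 0.0494). Within season 1 the differences were 0.10 and -0.14, so both calls came from season 2. Leaving out replicate 2-a gave 1.09 and 0.95, with an adjusted p of 0.371 for each, and both calls were also lost without 1-b (0.0517), 2-b (0.197 and 0.319) or 2-c (0.112 and 0.144).

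Just over the threshold were Ttu pre-miR067 in Tamaroi against EGA Bellaroi flag leaves (-0.55, adjusted p = 0.0614) and Ttu pre-miR106 in Yawa against Tjilkuri flag leaves (1.89, adjusted p = 0.0618). Ttu pre-miR106 lies on 5AL, and in Tjilkuri flag leaves its reads were 3 and 19 in plants 37 and 41, the same plants that had Ttu pre-miR005, and 1 read in plant 39. Without the 4 plants that stood apart 7 of the 47 were called between genotypes. Those added were Ttu pre-miR067 (-0.72, adjusted p = 0.012) and Ttu pre-miR137 (-0.84, adjusted p = 0.0212) in Tamaroi against EGA Bellaroi flag leaves, and Ttu pre-miR106 (1.89, adjusted p = 0.0369).

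In heads of Tamaroi against EGA Bellaroi 0 of 47 were called by limma, and 0.0% of all 159, while 7 of the 47 had an unadjusted p under 0.05. The smallest p there belonged to Ttu pre-miR005 (-1.75) and Ttu pre-miR035 (0.88), each with an adjusted p of 0.419. None of Ttu pre-miR007, Ttu pre-miR008, Ttu pre-miR038 and Ttu pre-miR109 was called between genotypes in either organ.

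**Figure D4:**
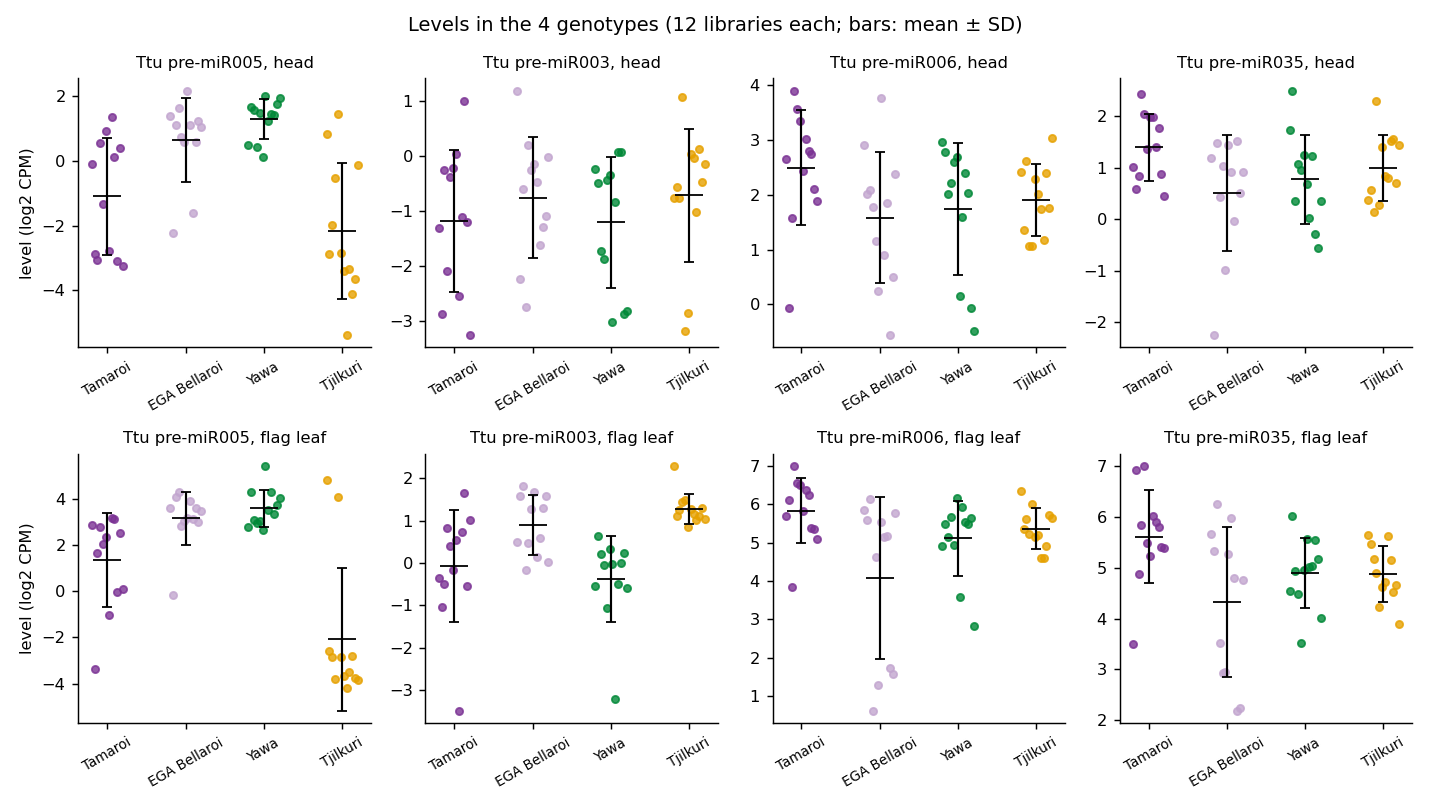
Levels in log2 CPM (vertical axis) of Ttu pre-miR005, Ttu pre-miR003, Ttu pre-miR006 and Ttu pre-miR035 in the 12 heads (upper row) and 12 flag leaves (lower row) of each genotype; points are libraries, bars the mean ± SD. Ttu pre-miR005 has reads in every Yawa library and is at the floor in most of Tjilkuri, and Ttu pre-miR006 in EGA Bellaroi flag leaves splits into 4 low plants and 8 others.

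Under water deficit few hairpins were called against control, which does not show that the others were unchanged. In the 8 comparisons of water deficit with control, 1 of the 47 was called, against 2.52% of all 159, and the 4 hairpins called in all came from heads of Yawa. The member was Ttu pre-miR038, with 3.85, 5.90, 5.89, 5.57, 3.78 and 3.60 log2 CPM in the 6 Yawa heads under water deficit and 6.18, 5.93, 6.12, 5.60, 5.96 and 5.92 in the 6 control heads. Under water deficit 3 heads, of plants 31, 35 and 36, were low and the other 3 lay within or just under the range of the controls. The difference was -1.19 (SE 0.34, adjusted p = 0.0472). It was lost when 1-a, 2-b or 2-c was left out of all groups, with an adjusted p of 0.385, 0.422 and 0.426. The share of reads on the 159 hairpins was also lower in these heads, 0.0941 to 0.175% under water deficit and 0.167 to 0.21% in controls, and with libraries shifted to a common median the difference was -0.86 with an adjusted p of 0.254.

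Beside it in Yawa heads lay Ttu pre-miR067 (-1.04, adjusted p = 0.0628), Ttu pre-miR007 (-1.12, adjusted p = 0.108) and Ttu pre-miR006 (-1.61, adjusted p = 0.108). The median difference there was -0.42 for the 47 and -0.32 for all 159. In the other 7 comparisons limma called 0 of the 47, with 0 to 7 members at an unadjusted p under 0.05. The smallest adjusted p in heads was 0.878 in Tamaroi (Ttu pre-miR070, 0.99, and Ttu pre-miR039, -1.15), 0.557 in EGA Bellaroi (Ttu pre-miR109, 1.5, and Ttu pre-miR069, 1.68) and 0.945 in Tjilkuri (Ttu pre-miR005, -2.35, and Ttu pre-miR142, -1.26). In flag leaves it was 0.696 in Tamaroi (Ttu pre-miR123, 1.36), 0.202 in EGA Bellaroi (Ttu pre-miR141, 1.47, and Ttu pre-miR109, 1.41), 0.206 in Yawa (Ttu pre-miR124, 0.64) and 0.296 in Tjilkuri (Ttu pre-miR106, -2.40, and Ttu pre-miR005, -3.09). The values of Ttu pre-miR005 and Ttu pre-miR106 in Tjilkuri again rest on control plants 37 and 41.

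Averaged over the 4 genotypes, water deficit against control called 0 of 47 in either organ, and 0.0% of all 159, with limma and with voom weights alike. At an unadjusted p under 0.05 there were 2 members in heads and 3 in flag leaves. The smallest p belonged to Ttu pre-miR033 and Ttu pre-miR036 in heads (-0.40 each, adjusted p = 0.847) and to Ttu pre-miR123 (0.70) and Ttu pre-miR001 (-0.85) in flag leaves (adjusted p = 0.387).

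The interaction of tolerance and treatment over all 96 libraries asked if water deficit acted differently on the tolerant and the sensitive pair of genotypes. Of the 47, 2 were called, against 2.52% of all 159, with 2 of 59 on B and 0 of 53 on D sequences. For both, water deficit minus control was lower in the tolerant genotypes. The 4 members with known sequence had been picked by the study on these same libraries, so their interaction values are no independent evidence.

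For Ttu pre-miR008 the interaction was -2.13 log2 (SE 0.52, adjusted p = 0.00656). In flag leaves it averaged -0.40 ± 2.10 log2 CPM under water deficit and 0.98 ± 1.05 in controls of the tolerant genotypes, and 1.49 ± 0.75 under water deficit and 0.41 ± 1.28 in controls of the sensitive ones (SD, n = 12 each). In heads the means were -2.16 ± 1.10 and -1.39 ± 0.96 in the tolerant genotypes, and -0.82 ± 1.41 and -1.86 ± 1.28 in the sensitive ones, in the same order of treatments. These means run in opposite directions in both organs. They include many floors. Of the tolerant flag leaves under water deficit 9 of 12 had any read, and those with 0 were of plants 12, 31 and 36, of which plant 12 is among the 4 that stood apart and plants 31 and 36 were also low for Ttu pre-miR038 in the head. The tolerant heads with any read were 5 of 12 under water deficit and 10 of 12 in controls, and the sensitive heads 10 of 12 and 7 of 12. With a common floor of -0.14 log2 CPM the interaction was -0.76 (adjusted p = 0.0825). That setting raised most head values, whose median was -1.54 log2 CPM, to the floor. In season 1 alone it was -0.39 (adjusted p = 0.926), and without replicate 1-a, 2-b or 2-c the adjusted p was 0.0734, 0.22 and 0.329.

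For Ttu pre-miR038 the interaction was -0.72 (SE 0.22, adjusted p = 0.0445). Heads averaged 5.10 ± 0.93 log2 CPM under water deficit and 5.81 ± 0.47 in controls of the tolerant genotypes, and 5.90 ± 0.24 and 5.70 ± 0.49 in the sensitive ones. Flag leaves averaged 6.24 ± 0.62 and 6.55 ± 0.38 in the tolerant genotypes, and 6.74 ± 0.30 and 6.51 ± 0.45 in the sensitive ones (SD, n = 12 each). The low heads of Yawa plants 31, 35 and 36 are among the tolerant ones under water deficit. With the plant as a block the adjusted p was 0.122, and without the 4 plants that stood apart the interaction was -0.58 (adjusted p = 0.0808). It was also lost without replicate 1-a (0.0922), 2-a (0.151), 2-b (0.22) or 2-c (0.49).

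Ttu pre-miR109 (-1.29, SE 0.42, adjusted p = 0.0614) and Ttu pre-miR007 (-0.72, SE 0.24, adjusted p = 0.0755) just missed the threshold in the same direction. In heads Ttu pre-miR007 averaged 8.33 ± 0.93 log2 CPM under water deficit and 8.71 ± 0.63 in controls of the tolerant genotypes, and 8.92 ± 0.27 and 8.35 ± 0.86 in the sensitive ones. Ttu pre-miR109 averaged -1.94 ± 1.15 and -1.26 ± 1.07 in the tolerant genotypes, and -0.65 ± 0.86 and -1.51 ± 1.30 in the sensitive ones (SD, n = 12 each). In the same order it had any read in 5 and 10 of 12 tolerant heads and in 10 and 7 of 12 sensitive heads. Its means therefore include many floors. In season 2 alone both passed, with an adjusted p of 0.0406 for Ttu pre-miR007 and 0.0228 for Ttu pre-miR109. In season 1 alone neither passed. Over 19 alternative limma fits Ttu pre-miR007 passed in 3 and Ttu pre-miR109 in 6, and their largest adjusted p was 0.801 and 0.755.

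**Figure D5:**
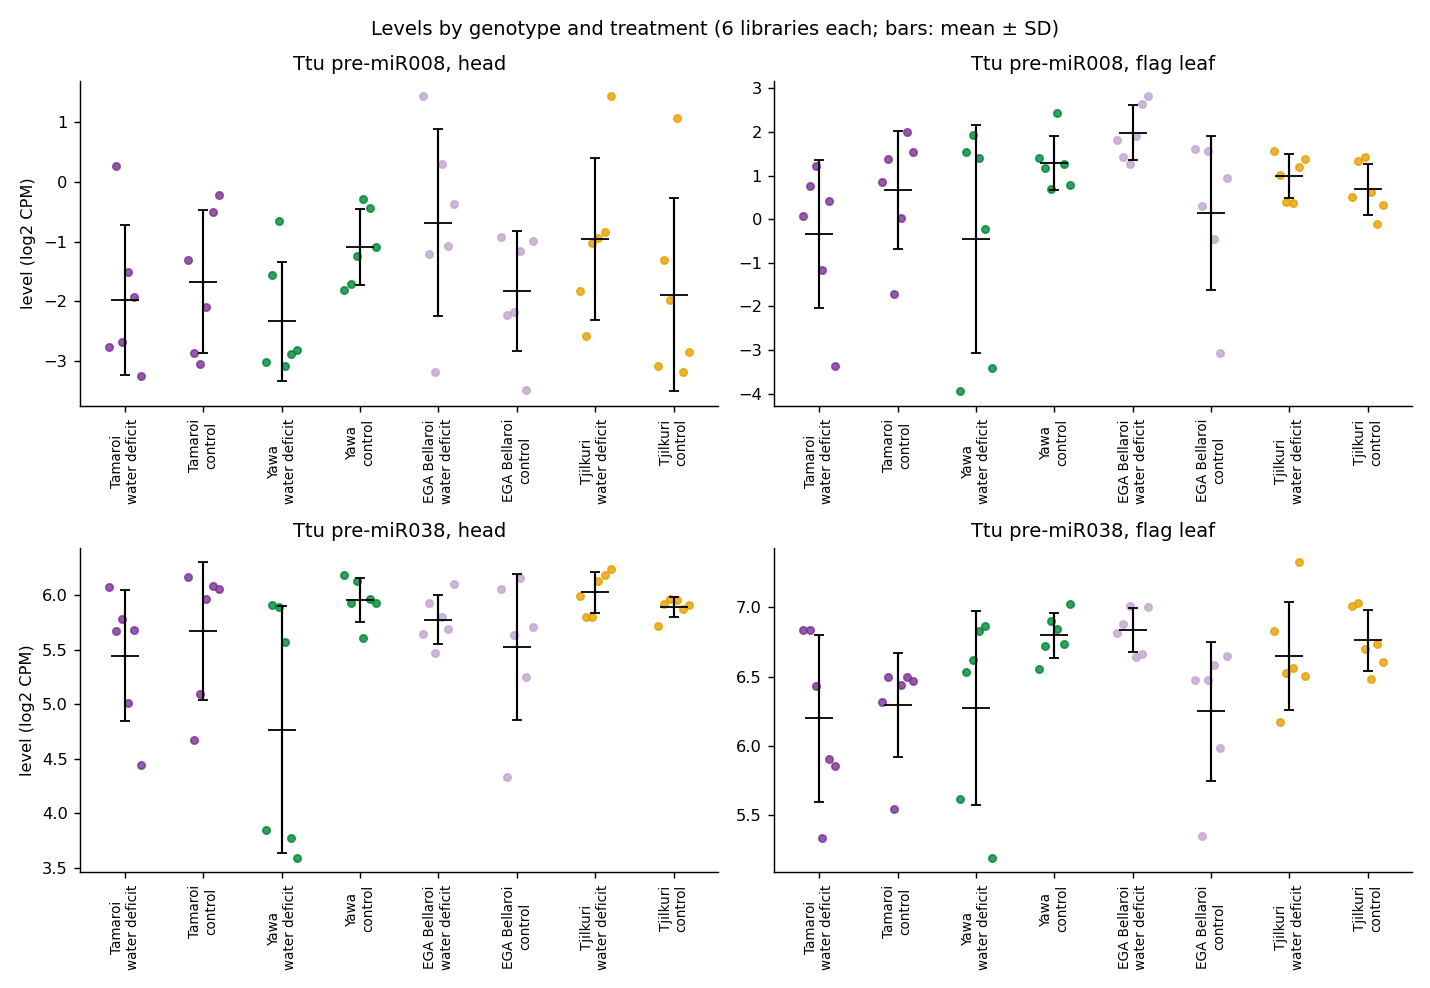
Levels in log2 CPM (vertical axis) of Ttu pre-miR008 (upper row) and Ttu pre-miR038 (lower row) in heads (left) and flag leaves (right) of each genotype under water deficit and control, 6 libraries a group; points are libraries, bars the mean ± SD. For Ttu pre-miR038 the Yawa heads under water deficit split into 3 near 3.60 to 3.85 and 3 near the control heads at 5.60 to 6.18.

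Between seasons 0 of the 47 were called by limma in heads and 0 in flag leaves, and 0.0% of all 159 in each organ, with 2 members at an unadjusted p under 0.05 in each. The nearest was Ttu pre-miR035 in flag leaves, at -0.86 log2 in season 2 against season 1 (SE 0.25, adjusted p = 0.0738), the member that also differed between Tamaroi and EGA Bellaroi in season 2. In heads the smallest p belonged to Ttu pre-miR068 (-0.81) and Ttu pre-miR071 (-0.99), each with an adjusted p of 0.545.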

How the data were processed

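The hairpin table was deposited by the authors as log2 CPM, 1 column per library. Total RNA was size-selected on a gel and sequenced as small RNA. Per the study's methods, trimmed reads were filtered against ribosomal, organelle, vector and repeat sequences with Bowtie2, placed on the bread wheat chromosome survey sequence with BioKanga, and folded with RNAFold and miRcheck. For the counting of reads per hairpin and the total behind CPM, the sources used here give no method. The conserved miRNA table was deposited by the authors as RPM and used only to check the organ labels. Every column of both files had a sample.

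Read counts were recovered from the steps of the log2 CPM values with a prior of 0.5. All 13580 values below 100 reads came out within 0.1 of a whole number (100%). Values of a library at its lowest level were taken as 0 reads and used as they stand.

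Differences were tested with limma 3.58.1 in R 4.3.3, with trended empirical Bayes variances, with Benjamini-Hochberg adjustment across the 159 hairpins and a threshold of 0.05. Organs were compared over 96 libraries, and genotypes, treatments and seasons within the 48 libraries of an organ. The tolerance by treatment interaction used all 96 libraries, with the organ as an additive term. The scripts were tested on simulated data. CPM normalises to the library and not to the hairpins, so a change in the share of hairpin reads moves all members together. Alternatives were no variance trend, voom weights on recovered reads, 1 common floor, libraries shifted to a common median, A and B hairpins only, each season alone, each replicate left out, a block, and, chosen after seeing the data, leaving out 4 or 6 plants. The common floor was -0.14 log2 CPM, the highest floor of any library, and every lower value was set to it. Differences of members that lie mostly under it shrink by construction. Within an organ, p values measure the spread between plants of a group. In the organ comparison and the interaction both organs of a plant entered as separate libraries, with no plant block in the main fit. The interaction model had no term for the genotypes within a tolerance class, so differences between them are part of its spread. Each class is a pair of genotypes and libraries are the units of the test. Its p values therefore do not measure how the treatment effect varies between genotypes of a class.

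Named are the called members, or the 8 with the smallest p in a direction where more were called, the 2 with the smallest p where none was, the 4 with a known sequence, the 6 highest and 3 lowest, and those that share reads. Others named were chosen after their values were seen. The members and lists were chosen with earlier results of these data known. The head and flag leaf of a plant number in the labels are from the same plant: over 48 plants their consensus correlation was 0.195, and the correlation of their deviations from the group means had a median of 0.281 (lowest -0.138, highest 0.717).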

Additional observations from a re-analysis of the deposited data

Results flagged for a closer look

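In 7 of the A genome hairpins, each of the 16 groups of 6 libraries was searched for a single library far from the other 5, which is 112 groups. In 11 the gap to the nearest library passed Dixon's 95% critical share of the group's range, and chance gives such a gap in about 1 group in 20. All values are in log2 CPM.

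Of these, 3 were in Ttu pre-miR071. The Tamaroi control of replicate 1-c had 7.17 in the flag leaf, where the others had -1.95 to 0.09, and 5.65 in the head, where the others had -0.09 to 0.83. The EGA Bellaroi control of replicate 1-b had 8.25 in the flag leaf, against -3.07 to -1.39. These are plants 3 and 14, which stood apart in both organs.

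In Ttu pre-miR005, 4 libraries were far from their groups. Replicate 1-b of the EGA Bellaroi controls, plant 14 again, had -0.18 in the flag leaf (others 2.81 to 4.29) and -2.24 in the head (others 0.60 to 1.65). Replicate 1-b of the Tamaroi controls had -3.37 in the flag leaf (others 1.65 to 2.87). Replicate 1-b of the Yawa controls had 4.27 in the flag leaf (others 2.65 to 3.07).

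The remaining 4 lay in other hairpins. Ttu pre-miR038 had 5.55 in the Tamaroi control flag leaf of replicate 1-c (others 6.32 to 6.50) and 5.71 in the Tjilkuri control head of replicate 1-a (others 5.87 to 5.96). Ttu pre-miR109 had -1.83 in the Tjilkuri head of replicate 1-a under water deficit (others -0.59 to -0.14). Ttu pre-miR070 had -0.98 in the EGA Bellaroi flag leaf of replicate 1-a under water deficit (others -3.49 to -2.66).

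Water deficit minus control differed between tolerant and sensitive genotypes at the threshold of the interaction test with limma for Ttu pre-miR008 (-2.13 log2, adjusted p = 0.00656) and Ttu pre-miR038 (-0.72 log2, adjusted p = 0.0445). Both were picked by the study on these libraries. The call of Ttu pre-miR008 was lost with a common floor (adjusted p = 0.0825), in season 1 alone (0.926) and without replicate 1-a, 2-b or 2-c (0.0734 to 0.329). That of Ttu pre-miR038 was lost with the plant as a block (0.122) and without replicate 1-a, 2-a, 2-b or 2-c (0.0922 to 0.49).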

How the results depend on the processing

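With libraries shifted to a common median, 26 A genome hairpins were higher and 11 lower in the head, 0 were called for water deficit, 1 for the interaction and 1 for season in flag leaves, and Ttu pre-miR007 (0.39), Ttu pre-miR038 (0.31) and Ttu pre-miR109 (0.60) reversed between organs. Without the variance trend 2 were called between genotypes, 0 for water deficit and 1 for the interaction, and with 1 common floor 2 between genotypes and 0 for the interaction. With A and B hairpins only, 2 were called for water deficit. Season 1 alone called 1 between genotypes and 0 for the interaction, and season 2 alone called 5 for water deficit and 9 for the interaction. Without the 4 plants that stood apart 7 were called between genotypes, 2 for water deficit and 1 for the interaction, and without 6 plants 8 were called between genotypes.

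Leaving out 1 replicate label at a time gave 6 to 7 members higher and 31 to 32 lower in the head, 2 to 5 called between genotypes, 0 to 4 for water deficit, 0 to 6 for the interaction, 0 to 1 for season in flag leaves and 0 to 0 for season in heads and for water deficit averaged over genotypes.

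With the plant as a block 1 member was called for the interaction instead of 2. Across the groups of an organ the season and letter are only a shared label (mean correlation of same-label libraries -0.0085 in heads and -0.0171 in flag leaves). With that label as a block 0 were called for water deficit, and Ttu pre-miR038 in Yawa heads had an adjusted p of 0.0575. Neither block changed another call.

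Of the 60 values of the 4 known-sequence members that were not called, 35 changed sign under some alternative and 1 was called. Among the other named values these changed sign or reached 0. In Tamaroi heads Ttu pre-miR070 had a water deficit difference of -0.87 in season 2 alone and 2.85 (adjusted p = 0.00869) in season 1 alone. With a common floor Ttu pre-miR069 in EGA Bellaroi heads and Ttu pre-miR142 in Tjilkuri heads were at 0, and Ttu pre-miR001 in flag leaves, averaged over genotypes, at 0.021. That floor, -0.14 log2 CPM, lay above most of the values of these members, so differences near 0 followed from the setting. Ttu pre-miR035 between Tamaroi and EGA Bellaroi flag leaves was -0.14 in season 1 alone. Of 970 single values recomputed, 901 kept direction and side of the threshold. The cause of these changes was not tested. Depth limits the 22 members with a median of 5 reads or fewer.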
